A study of Homo sapiens with 2 samples.

Results

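Genes that carry RNA out of the nucleus, start its translation and remove faulty copies were examined among the transcripts listed with ALKBH5, the enzyme that takes the methyl group off N6-methyladenosine in RNA. The members were the symbols entered under the KEGG pathways RNA transport and mRNA surveillance pathway or the GO term mRNA export from nucleus, without entries of the KEGG pathway Spliceosome, without symbols that start with DDX or DHX, and without ALKBH5, FMR1, ZC3H13 and YTHDC1. This gave 128 symbols of the 5614 named in the GO and KEGG tables. They carried 122 distinct gene identifiers. The members were thus chosen by the authors' listing of genes with peaks, so their listing is a description and was not tested.

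The cells were of the established line HL-60, derived from a human promyelocytic leukaemia, with no treatment or time point named in the labels. Both library names start with Ctrl, for control, and there is no library of another condition. There were 2 libraries, 1 of lysate RNA (input) and 1 of RNA recovered with an antibody against ALKBH5 (IP). The genotype label reads ALKBH5 for both, and each title names the other group than the library name does; groups were taken from the library names. The deposited tables give no value per library and no level per gene, so a gene can only be called listed or unlisted, the depth is unknown and no spread between replicates exists. Of 8 markers chosen for HL-60 cells 5 were named (MPO, PRTN3, CD33, CEBPA and MYC), and ELANE, AZU1 and CTSG were not. Of 11 markers of B, T, erythroid, epithelial and stromal cells 2 were named (EPCAM and KRT18). Among all protein-coding genes 26.9% were named. A listing is not a measure of expression, so these counts do not identify the cells.

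An mRNA is made ready for export while it is transcribed: the THO and TREX proteins load onto it, the receptor NXF1 takes it through the nuclear pore, and proteins on the cytoplasmic face of the pore release it. In the cytoplasm the cap-binding complex eIF4F and the initiation factors eIF2 and eIF3 bring the ribosome to it. Transcripts with a premature stop codon are recognised by UPF1 and its partners, with help from the exon junction complex, and degraded. ALKBH5 is known for its effect on mRNA export, and the methyl mark it removes is known to affect translation and decay.

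In the authors' deposited table the GO term mRNA export from nucleus had 80 entries on 101 background genes, a rich factor (the fold of its share of entries over the overall share) of 2.38 and 0.00245 as its corrected p. Of the GO terms listed there, 12.2% had a corrected p under 0.05. For RNA transport the authors' deposited table gave 91 entries on 165 genes, a rich factor of 1.65 and 0.127 as the corrected p. For the mRNA surveillance pathway the authors' deposited table gave 54 entries on 91 genes, with 1.78 and 0.213 for the same quantities. Neither pathway passed 0.05, which 5.26% of the listed KEGG pathways did. By distinct identifier, the entries covered 73.3% of the export term (95% exact Clopper-Pearson interval 63.5 to 81.6%), 52.1% of RNA transport (44.2 to 59.9%) and 57.1% of the surveillance pathway (46.3 to 67.5%). The intervals cover counting error only.

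The 3 terms overlapped. Of the 128 members, 78 stood in 1 of them, 44 in 2 and 6 in all 3. The 6 were the export receptor NXF1 and its relative NXF3, the decay factors UPF1 and UPF2, the exon junction protein CASC3, and SRRM1, a serine- and arginine-rich protein of the exon junction and splicing machinery. RNA transport and the export term shared 30 members that were not in the surveillance pathway, and 25 of these were nucleoporins. By role, 26 members belonged to the nuclear pore, 24 to export, 26 to translation initiation and 40 to surveillance, 3' end formation and decay. The export role also covers import receptors, assembly of spliceosomal RNA particles and tRNA processing. The last role is called decay below, although 20 of its members are in the cleavage and polyadenylation list and 6 in the nonsense-mediated decay list. A further 8 symbols carried an identifier that was not matched to their own symbol. Another 4 were in no role list: the translation factor EIF5A, the RNA-binding protein HNRNPA2B1, the ribosome export adaptor NMD3, and the readthrough gene BCL2L2-PABPN1.

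To show what was not listed, the members were set against role lists of 277 genes. Of these, 162 were named in some table (58.5%, 95% interval 52.4 to 64.3%). Among all 20056 protein-coding genes of the reference the share was 26.9%, but genes of these pathways became listed through the terms that chose the members. In terms other than those 3, 158 of the 277 were named (57.0%), against 25.9% of protein-coding genes. The role lists were chosen with earlier results known, whereas the 25.9% counts every protein-coding gene of the reference. The shares thus rest on unlike bases, and the contrast was not tested. Many of those other terms hold the same genes, so they are no independent listing.

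**Figure D1:**
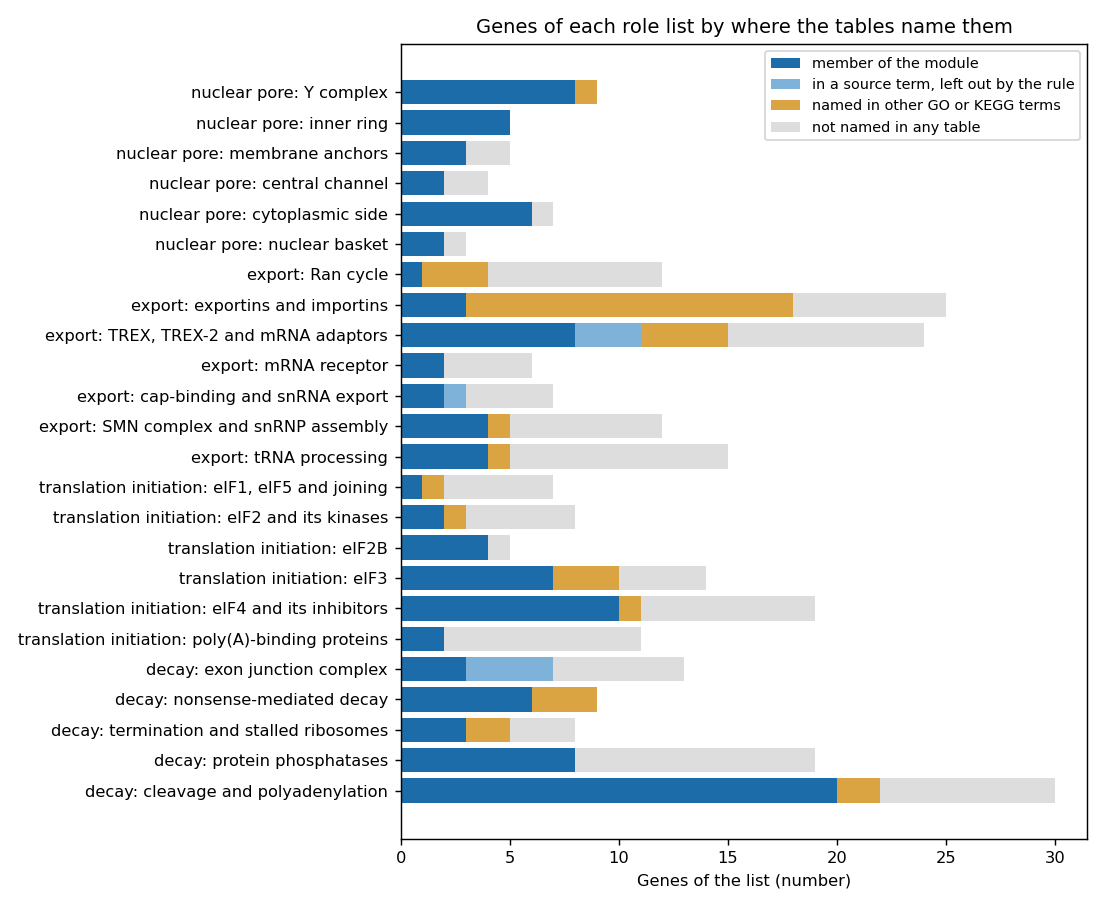
Number of genes of each role list (horizontal axis) that are members, stand in one of the 3 terms but are left out by the rule, are named in other GO or KEGG terms, or are not named in any table. The Y complex, the inner ring and the nonsense-mediated decay list have no unnamed gene, and the poly(A)-binding list has 9 of 11. The unnamed UPF3A and UPF3B are counted in the exon junction list.

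The nuclear pore was listed almost throughout its scaffold. Of the 33 pore genes 27 were named (81.8%, 95% interval 64.5 to 93.0%). All 9 genes of the Y complex, the outer ring of the scaffold, were among them. The members were NUP107, NUP133, NUP160, NUP37, NUP43, NUP85, SEC13 and SEH1L, and AHCTF1, which seeds new pores on chromatin, was named in 12 other terms. The inner ring was complete with NUP155, NUP188, NUP205, NUP35 and NUP93.

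On the cytoplasmic side 6 of 7 genes were members: NUP214 and NUP88, which dock export cargo, RANBP2, the large filament protein, GLE1, which activates the helicase that strips NXF1 off the mRNA, RAE1, an mRNA-binding partner of NUP98, and AAAS. NUP42 was not named. In the nuclear basket NUP153 and TPR were members and NUP50 was not named. The central channel, whose phenylalanine-glycine repeats form the permeability barrier, had NUP62 and NUP98 but not NUP54 or NUP58. The membrane anchors had NUP210, POM121 and POM121C but not NDC1 or NUP210L.

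TPR, which organises the basket, was named in 29 terms, the most of any pore member. NUP62 followed with 26, and NUP98 and RANBP2 had 25 each. GLE1 had 10, the fewest, and was the one pore member outside RNA transport. The median pore member was named in 18 terms, against 4 for all symbols of the GO and KEGG tables. The rule itself raises this count, since each member needs at least 1 source term and 25 of the 26 stood in 2. Outside the 3 source terms the medians were 16 and 4. The terms were largely the same for all: 25 of the 26 were entries of tRNA export from nucleus, of intracellular transport of virus and of regulation of glycolytic process, and 24 of protein sumoylation. In this order, the terms held 0.517%, 0.606%, 0.606% and 0.784% of all symbols. The members made up 27 of the 29 entries of tRNA export from nucleus, so the term and the pore list are largely the same genes. A smaller number had a mitotic annotation, with 9 in the term kinetochore (34.6%, against 1.14% of all symbols).

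POM121 and POM121C, pore membrane proteins encoded by near-identical copies on chromosome 7, were listed separately. POM121 lies from 72879357 to 72951459 and POM121C from 75416786 to 75486299 (GRCh38.p14). POM121 was paired with 4 families in the family table and POM121C with 0. The sources used here do not say how the authors assigned reads that fit both copies, so the pair is uncertain. The 250 bases before each start, from RefSeq, are shown because they let a reader see how alike the copies are; capitals mark bases that differ or have no partner in a global alignment of the pair. POM121 is at chr7:72879107-72879356 on the plus strand and POM121C at chr7:75486300-75486549 on the minus strand.
POM121: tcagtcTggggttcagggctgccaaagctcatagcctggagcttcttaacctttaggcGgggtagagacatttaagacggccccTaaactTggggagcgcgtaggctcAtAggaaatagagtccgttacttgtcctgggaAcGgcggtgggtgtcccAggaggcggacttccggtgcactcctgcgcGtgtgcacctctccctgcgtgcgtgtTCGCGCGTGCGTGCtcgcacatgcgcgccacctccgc
POM121C: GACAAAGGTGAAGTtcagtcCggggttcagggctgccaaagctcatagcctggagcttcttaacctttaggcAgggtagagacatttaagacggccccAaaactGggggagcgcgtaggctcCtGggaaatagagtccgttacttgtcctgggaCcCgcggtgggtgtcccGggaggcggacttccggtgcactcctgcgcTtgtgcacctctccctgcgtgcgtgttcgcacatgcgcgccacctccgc
Over 264 aligned positions 226 were identical (85.6%), with 10 mismatches and 28 positions in gaps. These windows were not measured in the study.

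The export lists were named in part. They also hold import receptors, RNA particle assembly genes and tRNA processing genes, so their share is not that of export factors alone. Of the 101 genes of the export lists 52 were named (51.5%, 95% interval 41.3 to 61.6%), 24 of them members. NXF1, the mRNA export receptor on chromosome 11 from 62792130 to 62805440, was named in 15 terms, among them nuclear speck and cytoplasmic stress granule. Its small partners NXT1 and NXT2 were not named. NXF3, a relative encoded on the X chromosome, was named in 9 terms, and NXF2 and NXF5 were not named.

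Of 24 TREX, TREX-2 and adaptor genes 15 were named. THOC5 and THOC6, subunits of the THO complex that couples transcription to export, were members with 11 terms each. THOC1, THOC2 and the adaptor ALYREF stood in the source terms too but are left out here as entries of Spliceosome. FYTTD1, POLDIP3 and SARNP, which hand mRNA to NXF1 or join TREX, and ZC3H11A were members through the GO term alone. So were MCM3AP, the TREX-2 scaffold, and RBM15B, which also serves the m6A methyltransferase. THOC3, THOC7, CHTOP, LUZP4, ENY2, PCID2, SEM1, AGFG1 and SLBP were not named. In all 6 export members were entries of nuclear speck: FYTTD1, NXF1, POLDIP3, RBM15B, SARNP and THOC6. They were 25% of the export members, against 4.61% of all symbols of the GO and KEGG tables.

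XPO1, the exportin for proteins, snRNA and some mRNA, was named in 24 terms and XPO5, which exports microRNA precursors, in 14. KPNB1, the main import receptor, had 21. The other named transport receptors, 15 of 25, stood in other terms than the chosen ones; CSE1L and TNPO3 were among them. XPO7, XPOT, KPNA1, KPNA3, KPNA7, IPO7 and IPO8 were not named. RANGAP1, which makes Ran hydrolyse GTP at the pore, was a member with 17 terms. RAN itself was not named, nor were NUTF2 and RANBP17. RCC1, the exchange factor of Ran, was named in 16 other terms.

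Assembly of spliceosomal RNA particles was represented by GEMIN2, GEMIN4 and GEMIN5 of the SMN complex, the arginine methyltransferase PRMT5, the cap hypermethylase TGS1 and the import adaptor SNUPN. SMN1 and SMN2, near-identical copies that encode the name-giving subunit, were not named, nor were GEMIN6, GEMIN7, GEMIN8, STRAP and CLNS1A. Of the cap-binding and snRNA export genes, NCBP2, NCBP2L, NCBP3 and PHAX were not named, and NCBP1 is left out as an entry of Spliceosome. Among tRNA processing genes ELAC2, POP1, POP4 and RPP40 were members. The last 3 are subunits of RNase P, and with NXF1, NXF3 and XPO1 they were also entries of Ribosome biogenesis in eukaryotes. That pathway held 25% of the export members, against 1.02% of all symbols. ELAC1, TRNT1, POP5, POP7, RPP21, RPP25, RPP30, RPP38 and the elongation factors EEF1A1 and EEF1A2 were not named.

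Among translation initiation genes 32 of 64 were named (95% interval 37.2 to 62.8%), 26 of them members. The cap-binding complex eIF4F was represented by all of its parts: EIF4E, which binds the cap (15 terms), the scaffolds EIF4G1 (14) and EIF4G3 (5), and the helicases EIF4A1 (12) and EIF4A2 (9). EIF4B, which aids the helicase, was a member, and EIF4H was named in other terms. None of EIF4EBP1, EIF4EBP2 and EIF4EBP3, the inhibitors of EIF4E, was named. EIF4E1B, EIF4E2, EIF4E3, EIF4G2 and FXR2 were not named either. CYFIP1 and CYFIP2, which can hold EIF4E inactive, FXR1, a relative of FMR1, and TACC3 were also members.

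For eIF2, which brings the initiator tRNA, the alpha subunit EIF2S1 (16 terms) and the gamma subunit EIF2S3 (6 terms) were members and the beta subunit EIF2S2 was not named. Of its exchange factor eIF2B, 4 of 5 subunits were members: EIF2B1, EIF2B3, EIF2B4 and EIF2B5. EIF2B2 was not named. Of the stress kinases that act on eIF2, EIF2AK3 was named in 14 terms and EIF2AK1, EIF2AK2 and EIF2AK4 were not named.

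Of 14 eIF3 genes 10 were named. EIF3A, EIF3B, EIF3C, EIF3CL, EIF3D, EIF3F and EIF3I were members. EIF3K, EIF3L and EIF3M stood in other terms, and EIF3E, EIF3G, EIF3H and EIF3J were not named. EIF3A, EIF3C and EIF3CL were named in RNA transport and in no other term. EIF3C and EIF3CL are copies on chromosome 16, at 28688558 to 28735730 and 28379581 to 28426418. The table gave both the identifier of EIF3CL, so they count as 1 identifier. EIF5B, which joins the ribosomal subunits, was a member, whereas EIF1, EIF1AX, EIF1B, EIF5 and EIF2D were not named. Of the 11 genes of the cytoplasmic poly(A)-binding list, PABPC4 and PABPC1L were named. PABPC1, PABPC1L2A, PABPC1L2B, PABPC3, PABPC4L and PABPC5 were not named, nor were the binding partners PAIP1, PAIP2 and PAIP2B.

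Of the 79 surveillance, 3' end and decay genes 51 were named (64.6%, 95% interval 53.0 to 75.0%), 40 of them members. All 9 genes of the nonsense-mediated decay list were named. This list leaves out UPF3A and UPF3B, which were counted with the exon junction complex and were not named. Its completeness thus depends on how the lists were split. UPF1, the helicase at the centre of nonsense-mediated decay, had 22 terms, and its partner UPF2 had 10. SMG1, the kinase that phosphorylates UPF1, had 16 terms. SMG6, the endonuclease, had 13, and the adaptor SMG5 had 9. SMG8, SMG9 and NBAS stood in other terms. UPF1, UPF2, SMG1, SMG5 and SMG6 were also entries of telomeric DNA binding. That term held 6 of the 40 decay members (15%), against 0.338% of all symbols.

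UPF3A and UPF3B, which bridge UPF2 to the exon junction complex, were not named. Of that complex CASC3, PNN and SRRM1 were members. EIF4A3, MAGOH, RBM8A and ACIN1 stood in the source terms and are left out here as entries of Spliceosome. MAGOHB, RNPS1, SAP18 and PYM1 were not named. For stalled ribosomes and termination, HBS1L, PELO and GSPT1 were members, SKIC2 and SKIC8 stood in other terms, and SKIC3 and ETF1, the release factor that reads stop codons, were not named. GSPT1 carried the identifier of its intronless relative GSPT2, so the table does not settle which of the 2 was meant.

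Cleavage and polyadenylation gave 20 members of 30 genes. They included CPSF1, CPSF2, CPSF3, FIP1L1 and WDR33 of the complex that recognises the polyadenylation signal and cuts, and CSTF1, CSTF2, CSTF2T and CSTF3 of the complex that binds downstream of it. CPSF7, the scaffold SYMPK, the termination factor PCF11, CLP1, SSU72 and WDR82 were members as well. So were the poly(A) polymerase PAPOLG, the nuclear poly(A)-binding PABPN1 and its relative PABPN1L. The 20 also include RNGTT and RNMT, which are capping enzymes and act at the opposite end of the mRNA. RBBP6 and MSI2 stood in other terms, and PAPOLA, PAPOLB, NUDT21, CPSF4, CPSF4L, CPSF6, MSI1 and DAZAP1 were not named. Of 19 phosphatase subunits in the surveillance pathway 8 were members. They were the catalytic subunit PPP1CB and PPP2R1A, PPP2R1B, PPP2R2A, PPP2R3B, PPP2R5B, PPP2R5C and PPP2R5D, scaffold or regulatory subunits of protein phosphatase 2A. Its catalytic subunits PPP2CA and PPP2CB were not named, nor were PPP1CA, PPP1CC, PPP2R2B, PPP2R2C, PPP2R2D, PPP2R3A, PPP2R3C, PPP2R5A and PPP2R5E.

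**Figure D2:**
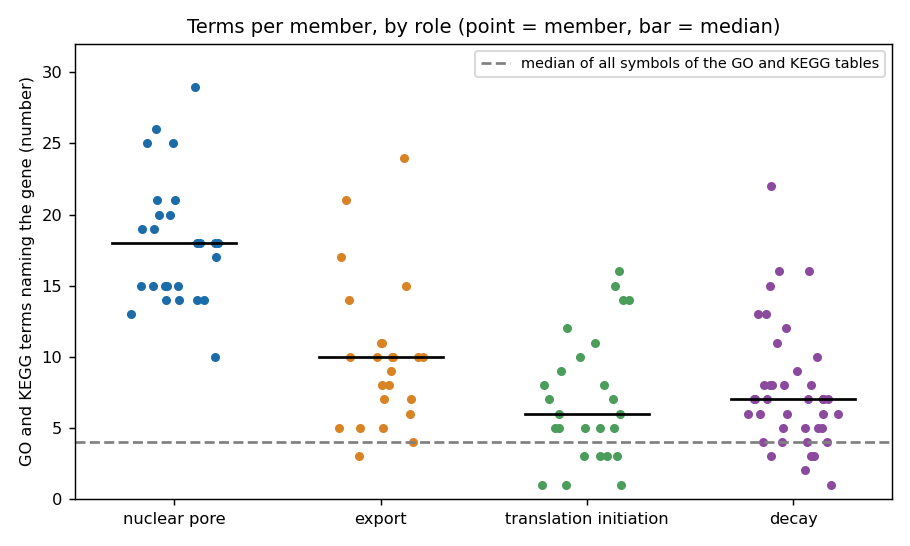
Number of GO and KEGG terms naming each member (vertical axis), 1 point per member, by role; black bars are medians and the dashed line is the median of all symbols in both tables. Medians are 18 for the nuclear pore, 10 for export, 6 for translation initiation and 7 for decay, against 4. The rule itself adds at least 1 term to each member. Without the 3 source terms the medians are 16, 9, 5 and 5, against 4. The decay group includes surveillance and 3' end formation.

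Some symbols carried an identifier that was not matched to them, called another gene's identifier here. Of these members, 8 were given no role. RP11-500C11.3, RP11-544A12.4 and RP11-1035H13.2, clone names with no match in the reference, carried the identifiers of NUP153, NUP214 and SMG1, which were listed beside them. RP11-258F1.1 carried that of ALKBH5 itself and RP11-529K1.3 that of the helicase gene DDX19B, which was not entered under its own name. Whether these clone names belong to those genes is not settled here. MCM3AP-AS1 and PRMT5-AS1 are antisense genes that overlap their partners by 16.6 kb (73.7% of the antisense gene) and 2.88 kb (72.8%). The kit was stranded per the labels, but the sources used here do not say whether strand was used when peaks were assigned. PSMA2, a proteasome subunit on chromosome 7, carried the identifier of STRAP, an SMN complex partner on chromosome 12 that was not named. With GSPT1 and EIF3C, 10 symbols were not matched to their own identifier, and 118 were. PABPN1 lies wholly within BCL2L2-PABPN1 on chromosome 14, so reads in their 4.71 kb overlap cannot be told apart.

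Of the 118 members on their own identifier 79 overlapped another gene of the reference on either strand (66.9%), against 61.5% of 5201 listed protein-coding genes. With protein-coding neighbours alone the shares were 28.0% and 25.1%. They were spread over 22 chromosomes. Apart from PABPN1 and its readthrough gene, GEMIN2 and PNN on chromosome 14 were the only adjacent members under 100 kb apart, with a gap of 38.3 kb.

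Listed genes of all kinds were longer than unlisted ones, and the role lists had the same order of medians. Over all protein-coding genes the median genomic length, introns included, was 35.4 kb for named and 20.1 kb for unnamed genes. In the role lists it was 38.0 kb for 162 named and 26.3 kb for 115 unnamed genes. By role the medians of named and unnamed genes were 63.6 and 41.0 kb for the pore, 39.0 and 23.3 kb for export, 25.4 and 24.2 kb for initiation, and 36.3 and 30.6 kb for decay. The ranges overlapped in every role. Members had a median of 37.6 kb (123 with a match), from THOC6 with 3.72 kb to EIF4G3 with 371 kb, leaving aside RANBP2. The reference table gives RANBP2 a span of 1123 kb, which is doubtful because it is far longer than this gene is usually annotated. Length moved with being named here, and its part in the listing was not tested.

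**Figure D3:**
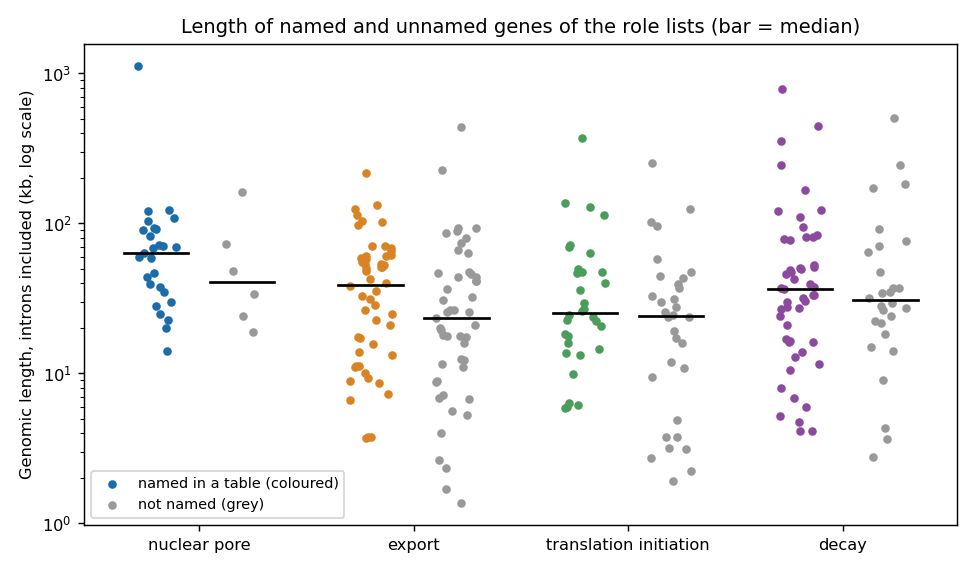
Genomic length with introns (kb, log scale) of each gene of the 4 role lists, coloured where some table names it and grey where none does; black bars are medians. The medians differ by 1.55 times for the pore, 1.68 for export, 1.05 for initiation and 1.18 for decay, and the points overlap in each role. The decay role includes surveillance and 3' end formation. The highest point, RANBP2 in the pore list, has a doubtful length.

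The family table, which the choice of members did not use, links symbols to families of RNA-binding proteins such as RRM, the RNA recognition motif. It held 23 of the 128 members (18.0%, 95% interval 11.7 to 25.7%), close to the 19.8% of all symbols of the GO and KEGG tables. All 4 families were paired with 16 of the 23, or 12.5% of members against 12.6% of all symbols. The RRM and CSD families were paired with each of the 23, PUF with 21, and the family written as CCHC ZF,RRM with 16. Since nearly every gene of the table is paired with RRM and CSD, a pairing does not tell these genes apart.

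By role the table held 4 of 26 pore members (15.4%), 2 of 24 export members (8.33%), 4 of 26 initiation members (15.4%) and 12 of 40 decay members (30.0%, 95% interval 16.6 to 46.5%). Each interval included the share of all symbols. The pore genes were NUP93, POM121, RANBP2 and SEH1L, and the export genes ELAC2 and THOC5. The initiation genes were EIF4E, EIF4G1, EIF2S3 and CYFIP2. In the decay list 9 of the 12 worked in cleavage and polyadenylation: CPSF2, CSTF1, CSTF2T, PABPN1, PAPOLG, PCF11, SSU72, SYMPK and WDR33. The other 3 were SMG1, SRRM1 and the phosphatase PPP1CB. The last of the 23 was the clone RP11-258F1.1 on the identifier of ALKBH5. NXF1, UPF1, UPF2 and CASC3, in all 3 source terms, were not in the table. Members in the family table had a median length of 46.8 kb and the others 35.8 kb; for listed protein-coding genes the medians were 42.2 and 33.4 kb.

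**Figure D4:**
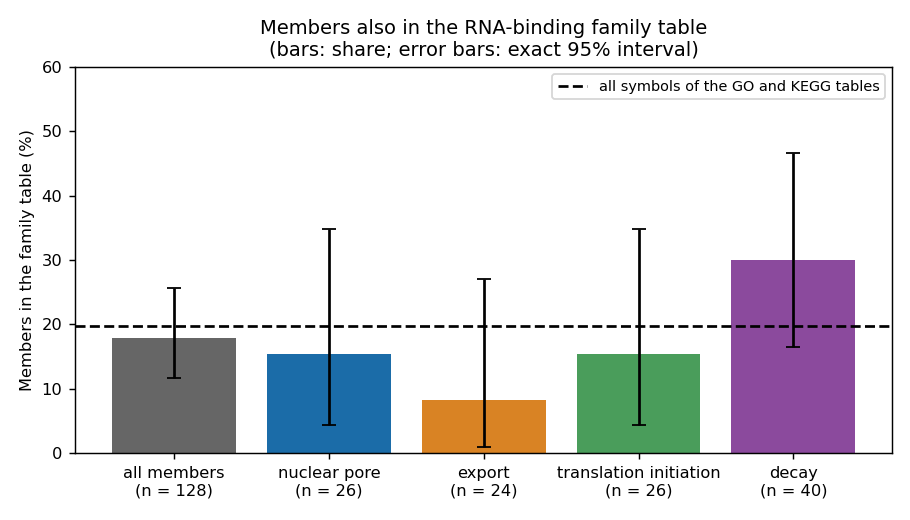
Share of members also present in the RNA-binding family table (%, bars) for all members and each role, with exact 95% intervals; the dashed line is the share of all symbols of the GO and KEGG tables. All intervals include the dashed line at 19.8%.

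Promoters were read as one sequence property that the choice of members did not use. RefSeq windows from 250 bases before to 50 after the start were found for 109 members. Their median GC content was 62.0%, against 65.0% for 4321 listed protein-coding genes and 62.7% for all protein-coding promoters. The letters CCGGAAGT, the core of many ETS factor sites, occurred on either strand in 14 of the 109 (12.8%), against 10.9% of promoters of listed genes and 6.19% of all protein-coding promoters. In the pore list 5 of 24 held it: NUP160, NUP35, POM121, POM121C and SEC13. POM121 and POM121C are near-identical copies, so their windows are not independent. CCAAT occurred in 41.3%, against 37.3% of promoters of listed genes and 36.4% of all protein-coding promoters. For TATAAA the shares were 2.75%, against 5.62% and 9.63% in the same order. The 109 include the antisense genes MCM3AP-AS1 and PRMT5-AS1, whereas the comparison sets hold protein-coding genes only. They also include PSMA2, EIF3C and GSPT1, which were entered under another gene's identifier. The windows of MCM3AP-AS1, PRMT5-AS1 and PSMA2 held CCAAT. GSPT1 was among the 3 members whose windows held TATAAA, and the window of EIF3C held none of the motifs. The motifs were counted separately, and overlaps between them were not removed. A match says only that the letters are in the window.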

How the data were processed

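RNA immunoprecipitation sequencing of HL-60 cells gave 1 input and 1 IP library; per the submitters' processing notes the build was hg38, while aligner, peak caller and its limits are not given in the sources used here. Per the file headers, the authors deposited for each GO or KEGG term counts of input entries and background genes, a rich factor (a fold, the ratio of shares), a p-value and a corrected p-value. Per the file headers, the third table links symbols to RNA-binding protein families; it has no other value. The members, role lists, gene lists and tests were chosen with earlier results of these data known. Symbols were matched to RefSeq (GRCh38.p14) by symbol, then by older symbols: 123 of 128 members matched. With 1 library per group no test was run; shares carry exact Clopper-Pearson 95% intervals. The rule for named genes took every listed member of a role, with values for those in 2 or more source terms, those in the family table, the 3 in most terms and the longest and shortest gene; other values printed here were added after they were seen. Unnamed genes of each list are given, apart from some genes that are not reported here. Alternatives counted identifiers, other term choices and other listings. The member rule was tested on simulated data. Python 3.11.15, pandas 2.3.3, scipy 1.17.1 and Biopython 1.88 were used.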

Additional observations from a re-analysis of the deposited data

How the results depend on the processing

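The 128 members became 122 as distinct identifiers, 128 with Spliceosome entries left out by identifier, 145 with those entries kept, 116 from the KEGG pathways alone and 118 without symbols on another gene's identifier, an alternative chosen after seeing the data. From the GO term alone 59 remained, since it holds fewer entries. The share in the family table ranged from 12.5% with all 4 families required to 18.6% without symbols on another gene's identifier, inside its interval. The shares of the 3 source terms and of the 4 role lists stayed inside their intervals under each alternative run. Protein length was not run, because no protein table was used here. No paired analysis was possible because each group had 1 library and the tables give no value per library. Depth per gene is unknown, and genes outside every listed term could have peaks that these tables do not show.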
